A study of Mus musculus with 24 samples.

Results

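Blood stem cells are recognised by a shared set of transcription factors, receptors, pumps and growth brakes, and 33 such stem cell identity genes were examined in Bap1 knockout (KO) and wild-type (WT) mice. The genes were taken from a list that was chosen with earlier results of these data known. They were matched to the array by symbol without regard to case. Of the 33, 32 had a probe among the 17741 named genes of the array, and each was read from the probe that was brightest on average over the 24 arrays. No probe carried Ly6a, which encodes the Sca1 antigen used in the sort, and Gpr56 was found under its current symbol Adgrg1.

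Total RNA of sorted primary bone marrow cells from C57BL/6 mice was hybridised to 24 one-colour Cy5 arrays. All groups came from mice described as receiving tamoxifen to delete Bap1 throughout the body; neither the Cre driver nor the alleles of the WT mice is named in the labels. The 4 groups were KO LSK cells (lineage-negative, ScaI-positive, Kit-positive, a stem cell enriched fraction) from mice 2 and 4, WT LSK cells from mice 1 and 3, KO myeloid progenitors (lineage-negative, ScaI-negative, Kit-positive) from mice 7 and 8, and WT myeloid progenitors from mice 5 and 6. Each mouse gave 3 arrays, which were averaged, so each group held 2 mice, and no mouse gave both populations. Values are on the authors' log2 scale, which runs from 5.66 to 15.93 with array medians of 7.17 to 7.18.

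Hematopoietic stem cells sit at rest in the marrow niche for long periods and divide rarely. A small circuit of transcription factors, among them the products of Mecom, Hlf, Meis1, Gata2 and Runx1, maintains their capacity for self-renewal. At their surface they carry proteins also found on vascular cells, such as the angiopoietin receptor Tek, and they expel dyes and drugs through ATP-driven pumps. LSK cells hold the stem cells together with multipotent progenitors, so that many of these genes are known to be higher in LSK cells than in the committed myeloid progenitors. Bap1 encodes a deubiquitinase that acts on histone H2A with Asxl proteins.

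The promoters of the receptor Tek, of its relative Tie1 and of the pump Abcg2 are shown because Tek and Abcg2 were the only members called between KO and WT mice, and Tie1 is the partner of Tek. Sequences are from RefSeq, build GRCm38.p6, 250 bases before to 50 after the annotated start, 5′ to 3′ on the gene's strand. They cover chr4:94739039-94739338 on the plus strand for Tek, chr4:118489800-118490099 on the minus strand for Tie1, and chr6:58584283-58584582 on the plus strand for the most upstream of the 3 annotated Abcg2 starts. Capitals mark the letters GGAAG and GATAA on either strand. GGAAG is a form of the site of ETS factors such as Erg, Fli1 and Etv6, whose core GGAA is shorter. GATAA is a form of the site of GATA factors such as Gata2.
Tek: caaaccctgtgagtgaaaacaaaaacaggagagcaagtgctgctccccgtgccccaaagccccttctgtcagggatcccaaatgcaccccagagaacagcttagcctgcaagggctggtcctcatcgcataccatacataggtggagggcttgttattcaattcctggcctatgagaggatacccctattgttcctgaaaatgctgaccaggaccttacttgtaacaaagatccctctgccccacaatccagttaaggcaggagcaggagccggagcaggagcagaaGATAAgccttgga
Tie1: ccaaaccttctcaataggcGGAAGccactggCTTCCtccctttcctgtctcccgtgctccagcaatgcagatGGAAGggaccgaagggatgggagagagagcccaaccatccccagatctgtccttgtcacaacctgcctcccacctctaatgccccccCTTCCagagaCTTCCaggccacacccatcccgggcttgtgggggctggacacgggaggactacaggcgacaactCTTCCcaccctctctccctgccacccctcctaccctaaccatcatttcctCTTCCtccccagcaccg
Abcg2: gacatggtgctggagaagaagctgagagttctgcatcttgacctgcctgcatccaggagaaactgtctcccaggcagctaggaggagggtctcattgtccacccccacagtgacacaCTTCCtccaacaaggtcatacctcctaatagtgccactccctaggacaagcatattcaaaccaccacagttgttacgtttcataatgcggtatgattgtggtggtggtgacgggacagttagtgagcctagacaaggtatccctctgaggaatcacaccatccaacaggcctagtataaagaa
The Tek window held 1 GATAA, 37 bases after the start, and 0 GGAAG. It does hold the shorter GGAA, read on the reverse strand, which was not counted in any window. The Tie1 window held 7 GGAAG and 0 GATAA, and the Abcg2 window shown held 1 GGAAG and 0 GATAA. The other Abcg2 windows held 4 GGAAG at the middle start, and 1 GGAAG with 1 GATAA at the most downstream one. RefSeq promoters were found for 26 members, 37 in all, of which 59.5% held GGAAG and 21.6% held GATAA, against 71.4% and 25.4% of all 32851 promoters of the same length. The letters TGTGGT (RUNX factors), TGACAG (MEIS factors) and CAGCTG (E-box) were also searched on either strand and are not marked. The Abcg2 window shown held 2 TGTGGT and the Tek window 1 TGACAG, and the windows shown held no other match of these. All are letter matches in a window and say nothing of binding.

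The Bap1 probe gave 11.96 and 11.84 in KO LSK cells and 11.55 and 11.45 in WT LSK cells, and 11.67 and 11.85 in KO myeloid progenitors and 11.54 and 11.59 in WT myeloid progenitors. It was not lower in KO mice, with differences of 0.40 (limma adjusted p = 0.321) and 0.20 (adjusted p = 0.843), but it is not known here whether the probe lies inside the deletion, so it does not check the genotype labels. The Y-linked gene Kdm5d gave 7.88 in WT mouse 1 and 8.15 in WT mouse 5, against at most 6.03 in the 6 other mice, so this signal was not balanced between the genotypes. The probe of Xist, which marks the inactive X chromosome, gave 7.84 and 7.80 in KO LSK cells and 7.37 and 7.83 in WT LSK cells, and 7.87 and 7.84 in KO myeloid progenitors and 7.28 and 7.51 in WT myeloid progenitors. The labels give no sex, and the part of sex in the differences below was not tested beyond fits without both Kdm5d mice or with Kdm5d as a covariate. Of 21 myeloid and erythroid commitment genes, 10 were lower in KO LSK cells than in KO myeloid progenitors and 9 were lower in WT LSK cells than in WT myeloid progenitors, against 5.49% and 5.46% of all genes, with Elane, a neutrophil protease gene, at -4.33 on the log2 scale in WT. None was higher in KO LSK cells and 1 was higher in WT LSK cells, the myeloid and lymphoid factor gene Spi1 by 0.89 (adjusted p = 0.0347, up to 0.473 over the alternatives). Of a list of 6 progenitor marker genes, which holds more than the antigens of the gates, 5 were measured. In LSK cells 1 was lower in KO mice, Il7r (-2.11), against 2.9% of all genes. In myeloid progenitors 2 were lower, Cd34 (-1.18) and Il7r (-1.61), against 1.74% of all genes. The list medians were -0.41 and -0.81. Neither Il7r nor Cd34 is named in the gates given above. Kit, one of the antigens of the gate, did not pass between genotypes in either population, and the part of the sort in the differences below was not tested. As the arrays measured bulk RNA, fewer cells of a type and less RNA per cell cannot be told apart in any value below.

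Between KO and WT LSK cells the stem cell identity genes were mostly alike in call: 1 of the 32 passed the test, the angiopoietin receptor gene Tek, which was lower, and 31 did not pass. The test was limma on the mouse means with p-values adjusted over all 22439 probes and a threshold of 0.05. Among all 17741 genes 4.64% passed in LSK cells and 2.9% passed as lower, so 1 in 32 members was near the background. At an unadjusted p under 0.05 there were 7 of 32 members (21.9%), against 16.6% of all genes, and the median member difference was -0.10, against 0.02 over all genes. In myeloid progenitors again 1 of 32 passed, the efflux pump gene Abcg2, also lower, against 2.64% of all genes in either direction and 1.74% lower. There 10 of 32 members had an unadjusted p under 0.05 (31.2%), against 11.4% of all genes, and the median member difference was 0.24, against 0.00 over all genes. Slamf1 and Cd48 are among these members, and a single stray array enters the value of each, as given below. In the mean of both contrasts 2 members passed, Tek and Abcg2, both lower, where 7.95% of all genes passed and 4.85% passed as lower.

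**Figure D1:**
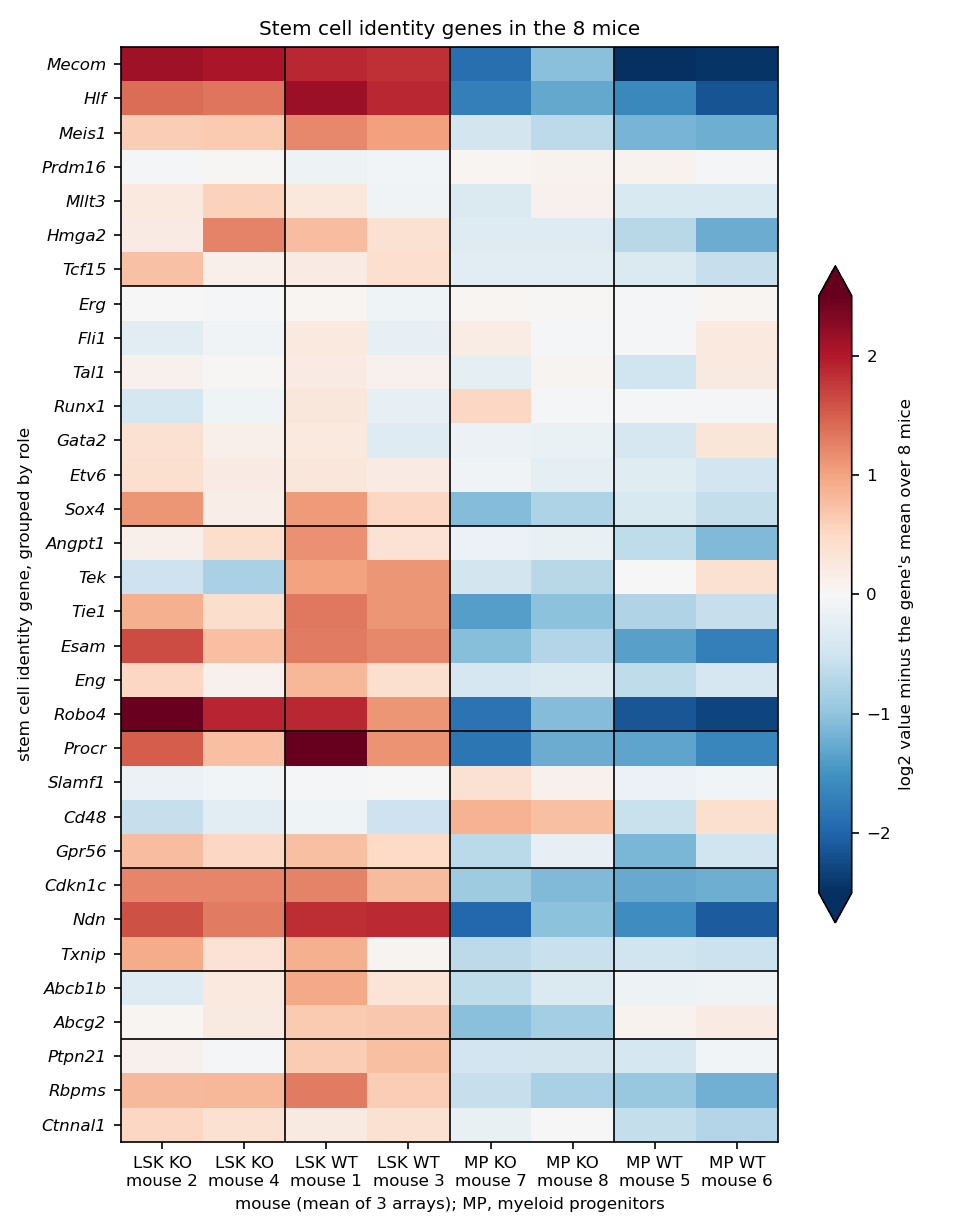
Log2 value of each stem cell identity gene in each mouse, as a difference from that gene's mean over the 8 mice (colour, log2 units; each column is the mean of 3 arrays). Columns are KO and WT LSK cells and then KO and WT myeloid progenitors, and horizontal lines part the roles; Tek is low in all 4 KO mice, while Mecom, Hlf, Robo4, Procr and Ndn divide the populations.

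Within the angiopoietin axis and the vascular-type surface proteins, Tek carried the clearest difference. Tek encodes the receptor tyrosine kinase that angiopoietins bind and that anchors stem cells in their niche. Its probe gave 6.96 and 6.67 in the KO LSK mice, against 8.50 and 8.60 in the WT LSK mice. The highest of the 6 KO LSK arrays was 7.10 and the lowest of the 6 WT LSK arrays was 8.48, so the genotypes did not overlap in any array. Tek fell by 1.73 on the log2 scale in KO LSK cells (SE 0.19, 95% interval -2.15 to -1.32), a 3.32-fold lower value, with a limma adjusted p of 0.000807. It passed under all 19 alternative settings, with differences of -1.88 to -1.59. In KO myeloid progenitors Tek gave 7.02 and 6.79, against 7.48 and 7.87 in WT myeloid progenitors. The mice of each genotype again lay apart, but the difference of -0.77 (95% interval -1.18 to -0.35) had an adjusted p of 0.0678 and did not pass. It passed in 5 of 19 alternatives, among them the median over a mouse's arrays (-0.81, adjusted p = 0.0373), a setting chosen after seeing the data. In the mean of both contrasts Tek was 1.25 lower in KO mice on the log2 scale (SE 0.13, adjusted p = 0.000326). The KO values of Tek in both populations thus lay between 6.67 and 7.02, with no order by population. They were all below the lowest array median of 7.17, where a gap between populations may register less.

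The ligand gene Angpt1 and the sister receptor gene Tie1 did not pass in either population. Angpt1 gave 10.75 and 11.08 in KO LSK cells, against 11.78 and 10.99 in WT LSK cells, a difference of -0.47 (95% interval -1.09 to 0.15) with overlapping mice. In myeloid progenitors it gave 10.49 and 10.45 in KO mice and 10.00 and 9.52 in WT mice, a difference of 0.71 (adjusted p = 0.352), so its fitted differences had opposite signs in the populations. Tie1, whose product pairs with the Tek receptor, gave 10.40 and 9.96 in KO LSK cells and 10.83 and 10.60 in WT LSK cells. It gave 8.12 and 8.49 in KO myeloid progenitors and 8.76 and 8.93 in WT myeloid progenitors. All KO mice lay below all WT mice of their population, by 0.54 on average in each, with a limma adjusted p of 0.0882 for the mean of both contrasts.

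**Figure D2:**
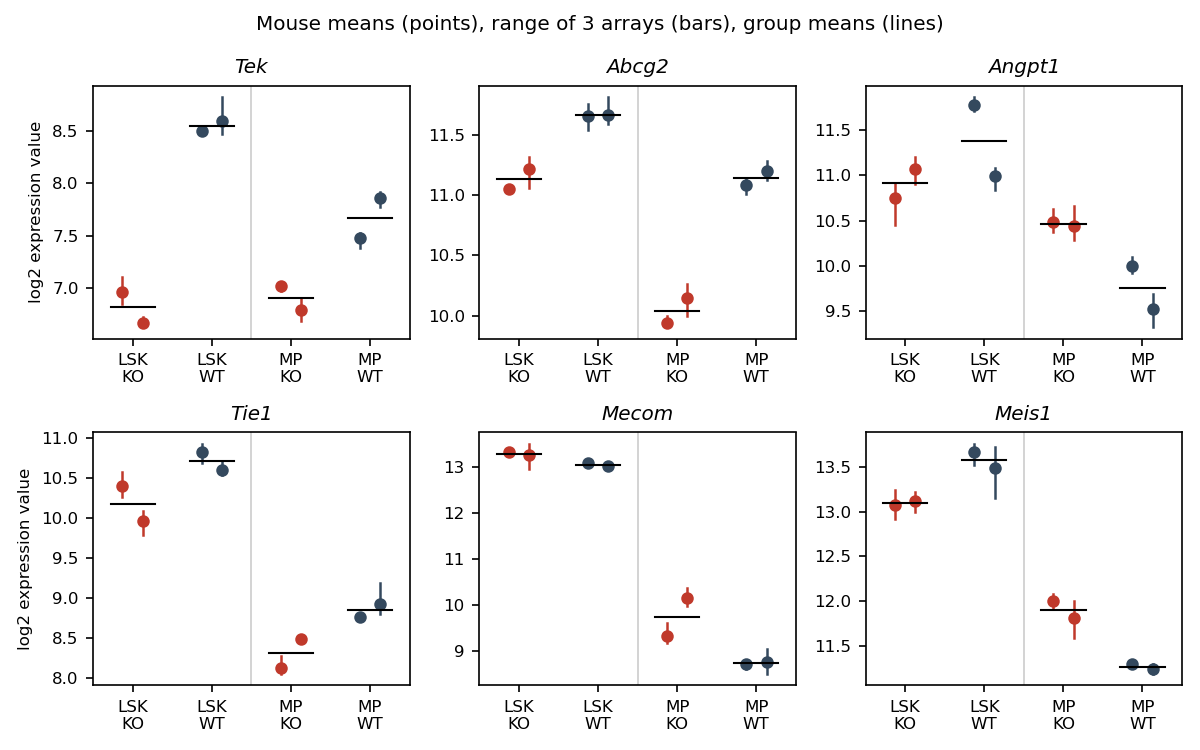
Log2 values of 6 members in KO (red) and WT (blue) mice of both populations; points are mouse means, vertical bars the range of 3 arrays, and horizontal lines group means, with a separate log2 axis for each gene. The KO points of Tek lie below the WT points in both populations, and Abcg2 shows the widest gap between genotypes in myeloid progenitors.

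The remaining vascular-type genes did not pass between genotypes. Robo4, a guidance-type receptor of endothelium and stem cells, gave 12.26 and 11.71 in KO LSK cells and 11.68 and 10.91 in WT LSK cells. Its differences were 0.69 in LSK cells (adjusted p = 0.353) and 0.75 in myeloid progenitors (adjusted p = 0.440). The adhesion gene Esam gave 11.47 and 10.59 in KO LSK cells, on both sides of 11.13 and 11.04 in WT LSK cells. Esam differed by -0.06 in LSK cells and 0.63 in myeloid progenitors, and the TGF-beta co-receptor gene Eng by -0.29 and 0.14. Of all 6 genes of this role, 1 was lower in LSK cells and 0 passed in myeloid progenitors, where 4 had an unadjusted limma p under 0.05, and the medians were -0.38 and 0.39.

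Because Tek, Tie1, Esam, Eng and Robo4 also mark endothelium, the endothelial list was read without them. Its mean over 18 other genes was 7.97 and 8.18 in the KO LSK mice, against 7.83 and 7.91 in the WT LSK mice. In myeloid progenitors it was 7.59 and 7.64 in KO mice, against 7.60 and 7.65 in WT mice. Cdh5, Kdr and Pecam1, named from this list as checks, stayed between 6.43 and 7.39 in all 8 mice, near the array median or below it. None of them passed between genotypes, and none is carried by endothelial cells alone as far as these data can tell. In LSK cells 2 of the 18 were higher in KO mice, the tight junction gene Cldn5 by 3.60 (SE 0.24) and the receptor gene Flt1 by 0.84 (12 of 19 alternatives, lost without both Kdm5d mice among others), and 1 was lower, the sialomucin gene Emcn by 3.01 on the log2 scale (SE 0.26). Emcn gave 7.49 and 7.08 in KO LSK cells, against 10.41 and 10.18 in WT LSK cells, and it was also lower in KO myeloid progenitors (log2 difference -1.45, adjusted p = 0.0139, lost under 5 of 19 alternatives, without both Kdm5d mice among them, with an adjusted p of up to 0.0964). Of all genes 4.64% passed between genotypes in LSK cells and 2.64% in myeloid progenitors. The part of endothelial cells in the differences of the members and of the endothelial list was not tested.

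The pumps Abcb1b and Abcg2 expel dyes and drugs, and Abcg2 gives the side population by which stem cells are sorted. Abcg2 gave 9.94 and 10.15 in KO myeloid progenitors, against 11.08 and 11.20 in WT myeloid progenitors. The highest of the 6 KO arrays was 10.26 and the lowest of the 6 WT arrays was 11.01. Abcg2 was thus 2.14-fold lower in KO myeloid progenitors, a log2 difference of -1.09 (SE 0.20, limma adjusted p = 0.0140). The call was lost without mouse 6, 7 or 8 in turn and without both mice that had a Kdm5d signal, with values of -1.20 to -0.99 over all 19 settings and an adjusted p of up to 0.125. In LSK cells Abcg2 gave 11.05 and 11.21 in KO mice and 11.65 and 11.66 in WT mice, a difference of -0.53 with an adjusted p of 0.193. In the mean of both contrasts it was 0.81 lower in KO mice on the log2 scale (SE 0.14, adjusted p = 0.00457). Abcb1b gave 6.74 and 7.32 in KO LSK cells, against 8.03 and 7.41 in WT LSK cells. Its differences of -0.69 in LSK cells (adjusted p = 0.160) and -0.38 in myeloid progenitors (adjusted p = 0.678) did not pass; with medians over a mouse's arrays the LSK value of Abcb1b was -0.75 with an adjusted p of 0.0473.

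None of the 7 stem cell transcription regulators passed in limma between genotypes in either population, and 2 in each population had an unadjusted p under 0.05. Mecom, a zinc finger factor needed for long-term stem cells, gave 13.33 and 13.26 in KO LSK cells, against 13.09 and 13.03 in WT LSK cells. In myeloid progenitors it gave 9.33 and 10.16 in KO mice, against 8.72 and 8.76 in WT mice. Both KO mice lay above both WT mice in each population, but the KO myeloid progenitor mice were spread, and the difference of 1.01 (SE 0.26) had a limma adjusted p of 0.0794, which passed without mouse 7. The second Mecom probe stayed between 6.23 and 6.75 in all mice and gave -0.10 in the same contrast, so the value rests on a single probe.

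Meis1, a homeobox partner of Hox proteins, gave 13.07 and 13.11 in KO LSK cells and 13.67 and 13.49 in WT LSK cells. In myeloid progenitors the order of the genotypes was the opposite, with 12.00 and 11.81 in KO mice and 11.30 and 11.24 in WT mice. Neither difference passed, at -0.49 (adjusted p = 0.183) in LSK cells and 0.63 (adjusted p = 0.116) in myeloid progenitors. Hlf, a bZIP factor active in stem cells, gave 13.87 and 13.79 in KO LSK cells and 14.59 and 14.34 in WT LSK cells. In KO myeloid progenitors it gave 10.76 and 11.18, overlapping with 10.85 and 10.31 in WT myeloid progenitors. The Hlf differences were -0.64 in LSK cells (adjusted p = 0.178) and 0.39 in myeloid progenitors (adjusted p = 0.644).

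The other regulators of this role varied less between genotypes or more between mice. Hmga2, a chromatin protein of fetal stem cells, gave 9.77 and 10.79 in the KO LSK mice and 10.34 and 9.94 in the WT LSK mice, with the KO mice on both sides of the WT mice. Tcf15, a bHLH factor linked to stem cell rest, differed by 0.12 in LSK cells and 0.19 in myeloid progenitors. Mllt3, a chromatin reader that sustains stem cells, lay between 6.28 and 7.23 in all mice, and the zinc finger gene Prdm16 between 6.05 and 6.26, at the low end of the scale, where a difference may not register.

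The blood lineage regulators were also without a call in limma, and 0 of the 7 had an unadjusted p under 0.05 in either population. Fli1 and Erg, of the ETS family, differed by -0.20 and 0.01 in LSK cells and by -0.03 and 0.03 in myeloid progenitors, with Erg at the low end of the scale (5.87 to 6.02 in all mice). Tal1, the bHLH factor that founds blood, lay between 13.34 and 14.05 in all mice and differed by -0.08 (95% interval -0.58 to 0.41) in LSK cells. Gata2 differed by 0.29 in LSK cells and -0.10 in myeloid progenitors, and Etv6, an ETS repressor, by 0.06 and 0.24. A dimmer Gata2 probe gave 0.40 and 0.17, and neither value passed. Sox4, an SRY-box factor of early progenitors, gave 12.94 and 12.00 in KO LSK cells, against 12.90 and 12.35 in WT LSK cells, so its mice overlapped. The brighter Runx1 probe gave -0.31 in LSK cells and the dimmer one 0.22, neither of which passed. The median differences of these 7 genes were -0.08 in LSK cells and 0.03 in myeloid progenitors.

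Among the other surface proteins 0 of 4 passed in limma between genotypes, with an unadjusted p under 0.05 for 0 in LSK cells and 2 in myeloid progenitors. Procr, the protein C receptor used to sort stem cells, gave 9.54 and 8.79 in KO LSK cells, against 10.62 and 9.15 in WT LSK cells. Its mice were the most scattered of the members, with an SE of 0.51 for the difference of -0.72. Cd48, a SLAM protein absent from stem cells and gained by progenitors, gave 11.38 and 11.25 in KO myeloid progenitors, against 9.95 and 10.91 in WT myeloid progenitors. In WT mouse 5 of Cd48 a single array, at 7.58, stood apart from the other two at 11.09 and 11.17 (SD 2.05). The Cd48 difference of 0.89 had an adjusted p of 0.238, and with the median over a mouse's arrays, chosen after seeing the data, it was 0.37 (adjusted p = 0.654). Slamf1, the SLAM protein that stem cells do carry, stayed between 5.78 and 6.29 in all mice, at the low end of the scale. Its difference in myeloid progenitors was 0.34 (limma adjusted p = 0.0804), with 0.08 to 0.48 over the alternatives. In KO myeloid progenitor mouse 7 of Slamf1 a single array, at 7.27, stood apart from 5.79 and 5.82 (SD 0.84). For the other mouse values of the members, of 256 in all, the SD of the arrays was at most 0.345. Gpr56, an adhesion G protein-coupled receptor, differed by 0.02 (95% interval -0.54 to 0.57) in LSK cells and by 0.38 in myeloid progenitors.

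Of the 3 genes that restrain growth 0 passed in limma between genotypes, also at an unadjusted p under 0.05. Cdkn1c, a cyclin-dependent kinase inhibitor of resting stem cells, gave 10.80 and 10.79 in KO LSK cells and 10.83 and 10.38 in WT LSK cells, a difference of 0.20 (95% interval -0.29 to 0.68). Ndn, the growth suppressor necdin, differed by -0.41 and Txnip, the thioredoxin inhibitor, by 0.16 in LSK cells. In myeloid progenitors the differences were 0.25, 0.33 and -0.10 for Cdkn1c, Ndn and Txnip.

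Of the other stem cell genes, the phosphatase gene Ptpn21 came nearest to a call in LSK cells. It gave 7.74 and 7.61 in KO LSK cells, against 8.27 and 8.38 in WT LSK cells, a difference of -0.65 (SE 0.18) with a limma adjusted p of 0.0724. In KO myeloid progenitors it gave 7.15 and 7.18, against 7.19 and 7.56 in WT myeloid progenitors. The catenin relative Ctnnal1 differed by 0.15 in LSK cells and 0.58 in myeloid progenitors (adjusted p = 0.256), and the RNA-binding protein gene Rbpms by -0.14 and 0.39. A dimmer Rbpms probe gave 0.03 and 0.39, and neither value passed. The KO mice of Ctnnal1 lay above the WT mice in myeloid progenitors, at 8.92 and 9.12 in KO mice, against 8.51 and 8.38 in WT mice.

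**Figure D3:**
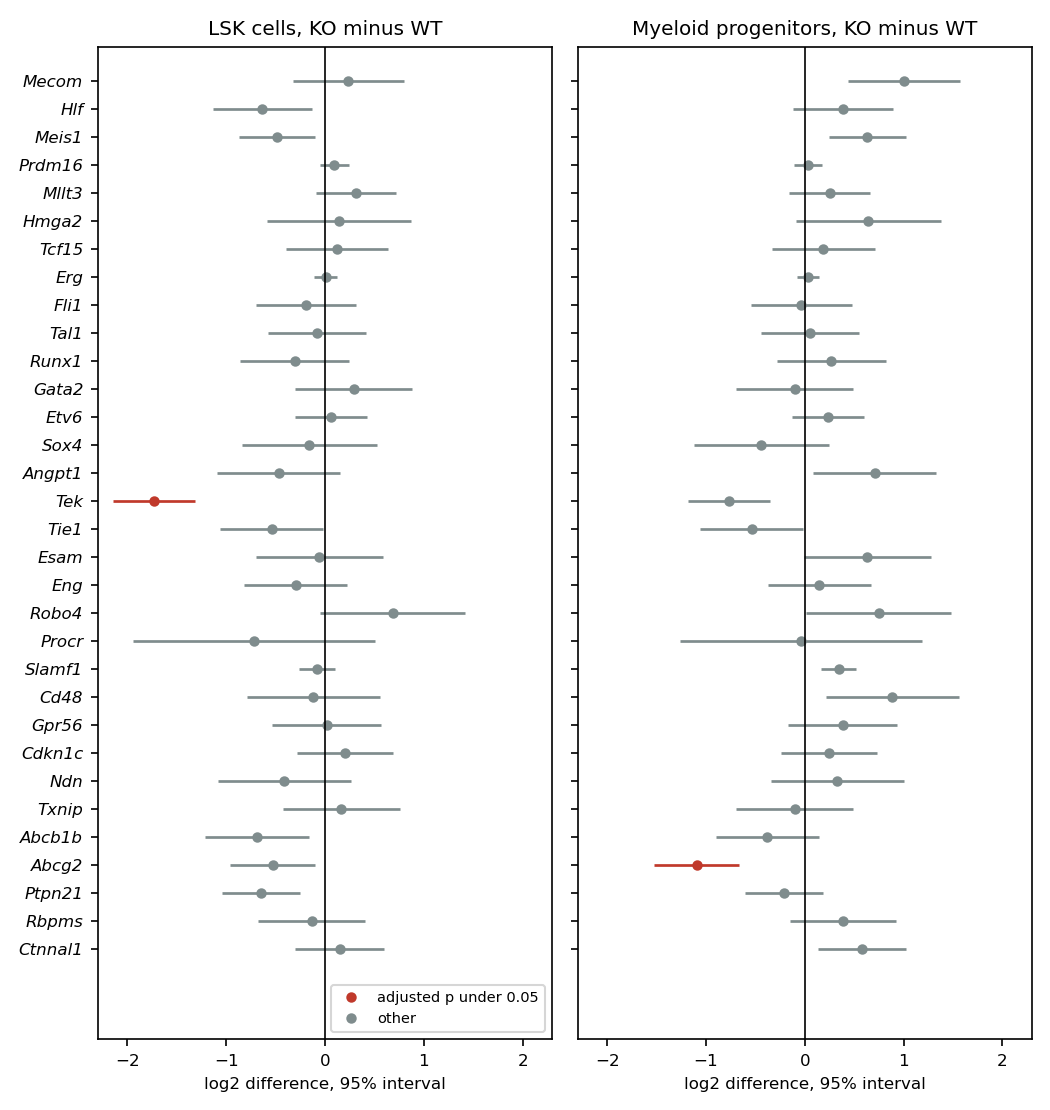
KO minus WT log2 difference of each stem cell identity gene in LSK cells (left) and myeloid progenitors (right), with 95% intervals from limma on 2 mice per group. Red marks an adjusted p under 0.05, reached by Tek in LSK cells (-1.73) and Abcg2 in myeloid progenitors (-1.09), and most other intervals cross 0.

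The test of whether genotype acted differently in the populations called 0 of the 32 members, where 0.062% of all genes, 11 of 17741, passed. At an unadjusted limma p under 0.05 there were 6 members (18.8%), against 6.35% of all genes. The alternatives called 0 to 4 members, with 4 in the fits over all arrays. The fitted difference, KO minus WT in LSK cells minus the same in myeloid progenitors, was negative for 26 of 32 members with a median of -0.40, against 46.6% of all genes and a median of 0.01. The members with an unadjusted p under 0.05 were Meis1 (-1.12, SE 0.25, adjusted p = 0.193), Tek (-0.97), Slamf1 (-0.43), Hlf (-1.02), Angpt1 (-1.18) and Cd48 (SE 0.43, adjusted p = 0.785). With medians over a mouse's arrays the values of Slamf1 and Cd48 were -0.16 (adjusted p = 0.664) and -0.51 (adjusted p = 0.866). For Tek both genotype contrasts were negative, whereas for Meis1, Hlf and Angpt1 the contrast was negative in LSK cells and positive in myeloid progenitors.

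More of the members differed between populations than between genotypes. In KO mice 16 of 32 members passed between LSK cells and myeloid progenitors, 14 higher and 2 lower in LSK cells, against 12.8% of all genes and 7.26% higher. In WT mice 20 of 32 passed, all higher in LSK cells, against 13.5% of all genes and 8.08% higher. The member medians were 0.71 in KO mice and 0.98 in WT mice, where the medians over all genes were -0.01 and -0.03. Of the calls, 9 of 14 in KO mice and 11 of 20 in WT mice were kept under every alternative run. In KO mice the calls of Sox4, Procr, Gpr56, Txnip and Abcg2 were lost without at least 1 of mice 2, 7 and 8, and 10 members passed in either direction without mouse 7. In WT mice the calls of Hmga2, Etv6, Sox4, Tek, Eng, Txnip, Ptpn21 and Ctnnal1 were lost without at least 1 single mouse, and that of Gpr56 without both mice that had a Kdm5d signal, where 11 members passed.

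The regulators Mecom and Hlf had wide gaps between populations in both genotypes. Mecom, whose mouse values are given above, was higher in LSK cells by 3.55 in KO mice and by 4.32 in WT mice (SE 0.26 each), and Hlf by 2.86 and 3.88 (SE 0.23 each). The second, dimmer Mecom probe gave gaps of -0.08 in KO mice and -0.18 in WT mice, so the Mecom gap also rests on a single probe. Meis1 was higher by 1.19 in KO mice (adjusted p = 0.00205) and by 2.31 in WT mice (adjusted p = 5.86e-05). Sox4 was higher by 1.56 in KO mice and 1.28 in WT mice, while Fli1, Erg, Tal1, Runx1 and Gata2 passed in neither genotype. Hmga2 and Etv6 had gaps of 1.05 and 0.46 in KO mice, which did not pass, and of 1.55 and 0.64 in WT mice, which did.

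Of the vascular-type proteins all 6 were higher in LSK cells in WT mice, against 8.08% of all genes, and 3 of 6 were in KO mice, against 7.26%. Robo4 in myeloid progenitors gave 7.95 and 8.71 in KO mice and 7.67 and 7.50 in WT mice, far below its LSK values in every mouse. Robo4 was higher in LSK cells by 3.66 in KO mice and 3.72 in WT mice, Tie1 by 1.87 and 1.88, and Esam by 2.09 and 2.78. Tek differed by -0.09 (95% interval -0.51 to 0.33) in KO mice, against 0.88 (95% interval 0.46 to 1.29, adjusted p = 0.0115) in WT mice. Its KO values were below the array medians in both populations, where a gap may register less. The WT gap of Tek did not pass without mouse 3, without mouse 5 or without both Kdm5d mice (0.68 to 1.07 over all settings, adjusted p up to 0.184). Angpt1 differed by 0.45 (adjusted p = 0.372) in KO mice and by 1.63 (adjusted p = 0.00389) in WT mice, and Eng by 0.70 and 1.14, with a call in WT mice. The gaps of the genotypes did not differ by the limma test for Tek (adjusted p = 0.371), Angpt1 (adjusted p = 0.593) or Eng (adjusted p = 0.905).

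All 3 growth restraint genes were higher in LSK cells in both genotypes, against 7.26% of all genes in KO mice and 8.08% in WT mice. Ndn gave 10.19 and 9.89 in KO LSK cells, against 6.63 and 7.57 in KO myeloid progenitors, and 10.44 and 10.46 in WT LSK cells, against 7.03 and 6.51 in WT myeloid progenitors. The populations lay apart in every mouse. Ndn was higher by 2.94 in KO mice and 3.68 in WT mice, Cdkn1c by 2.21 and 2.27, and Txnip by 1.26 and 0.99. Procr was higher by 2.65 in KO mice and 3.33 in WT mice, Gpr56 by 1.08 and 1.45, and Rbpms by 1.51 and 2.04. A dimmer Rbpms probe gave smaller gaps of 0.74 in KO mice and 1.11 in WT mice, which also passed. Ptpn21 and Ctnnal1 had gaps of 0.51 and 0.54 in KO mice, which did not pass, and of 0.95 and 0.97 in WT mice, which did. Abcg2 was the only member higher in LSK cells in KO mice (1.09, adjusted p = 0.00535) without a call in WT mice (0.52, adjusted p = 0.114); its gaps did not differ between the genotypes by the limma test (adjusted p = 0.845). Cd48 was lower in KO LSK cells than in KO myeloid progenitors, with a log2 difference of -1.24 (adjusted p = 0.0234, up to 0.270 over the alternatives), against -0.23 in WT mice (adjusted p = 0.686). With medians over a mouse's arrays, where the stray array of WT mouse 5 carries no weight, Cd48 was lower in LSK cells in both genotypes, at -1.29 in KO mice (adjusted p = 0.00353) and -0.78 in WT mice (adjusted p = 0.0427). Slamf1 was lower by a log2 difference of -0.34 in KO mice, near the low end of the scale, a call kept under 7 of 17 alternatives. With medians over a mouse's arrays, where the stray array of KO mouse 7 carries no weight, the Slamf1 difference was -0.08 (adjusted p = 0.279).

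Set side by side, 13 members were higher in LSK cells in both genotypes, which is 92.9% of the 14 in KO mice and 65.0% of the 20 in WT mice. Of the 20 called in WT mice, 18 (90.0%) had a smaller gap in KO mice, as had 71.8% of the 1434 genes of the whole array called higher in WT LSK cells. The WT gap chose these genes and also enters the comparison, so the share is a description. For none of the 20 did the KO and WT gaps differ by the limma test, which is the same as that of genotype by population.

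**Figure D4:**
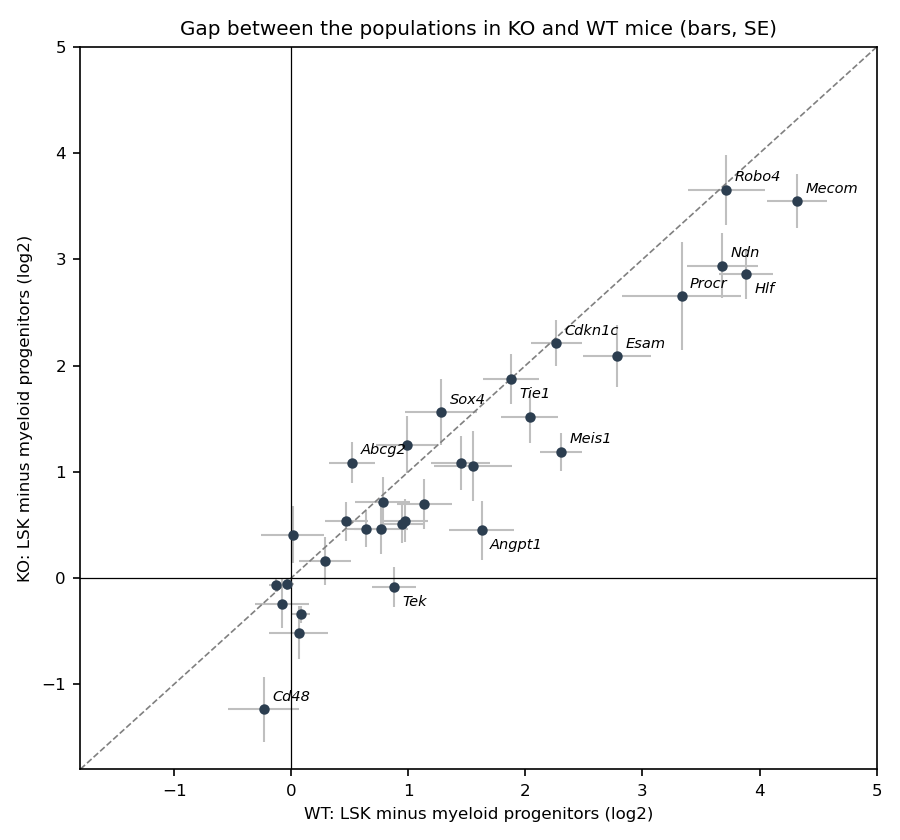
LSK minus myeloid progenitor difference of each stem cell identity gene (log2) in KO mice (vertical axis) against WT mice (horizontal axis), with SE bars and a dashed line of equal gaps. Most genes with a large WT gap lie on or below the line, Tek lies at -0.09 in KO mice against 0.88 in WT mice, and Abcg2 lies above the line.

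Further stem cell genes, named in a separate list of 60 of which 53 were measured, moved in both directions with genotype. In KO LSK cells 4 were higher and 3 lower than in WT LSK cells, with a list median of -0.14. Of all genes 4.64% passed there in either direction and 2.9% passed as lower. The platelet and stem cell matrix gene Mmrn1 gave 6.97 and 6.73 in KO LSK cells, against 9.81 and 8.74 in WT LSK cells, and fell by 2.43 on the log2 scale (SE 0.33, adjusted p = 0.00607). The sulfotransferase gene Sult1a1 rose by 2.36, the cell cycle inhibitor gene Cdkn1a by 1.81 and the cytokine signalling inhibitor gene Socs2 by 1.56. Calls of Mmrn1, Sult1a1 and Cdkn1a in LSK cells were kept under all 19 alternatives, and that of Socs2 under 14 of 19, with a loss without mouse 1, mouse 2 or both Kdm5d mice among them.

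In KO myeloid progenitors 3 of the further stem cell genes were higher and 1 lower, against 2.64% of all genes called in either direction. Socs2 was higher by 2.10 (16 of 19 alternatives), Cdkn1a by 1.45 (12 of 19) and the stress gene Nupr1 by 0.99 (12 of 18), and each call was lost without both Kdm5d mice. The sialomucin gene Cd34 gave 11.87 and 11.69 in KO myeloid progenitors, against 12.81 and 13.10 in WT myeloid progenitors, a difference of -1.18 (SE 0.18, adjusted p = 0.00647, lost without mouse 8). Between populations, 7.26% of all genes were higher in LSK cells in KO mice and 8.08% in WT mice. Of the further stem cell genes, 14 were higher and 2 lower in LSK cells in KO mice, and 20 higher and 2 lower in WT mice. In WT mice these were led by Fgd5, an exchange factor gene used to mark stem cells, at 3.81, the early response gene Egr1 at 3.77 and the lymphotoxin gene Ltb at 3.60. The calls of Fgd5 and Ltb were kept under all 19 alternatives, and that of Egr1 under 11 of 19, lost without any 1 of mice 1 to 6 and without both Kdm5d mice (adjusted p up to 0.386).

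Genes of multipotent and lymphoid-primed progenitors, share the LSK gate with stem cells. Of 16 measured, 5 were lower in KO LSK cells, where 2.9% of all genes were lower, and 4 in KO myeloid progenitors, where 1.74% were. None of the 16 passed as higher in either, and the list medians were -0.46 and -0.18. The recombinase gene Rag1 gave 5.89 and 5.96 in KO LSK cells, against 9.53 and 8.76 in WT LSK cells, and the cytokine receptor gene Il7r gave 7.35 and 6.93, against 9.16 and 9.33. Both were lower in KO LSK cells under all 19 alternatives. Other calls were less stable. In LSK cells Ccr9 was kept under 15 of 19 and Mef2c under 10 of 19, with Mef2c lost without any 1 of mice 1 to 4. In myeloid progenitors Mef2c was kept under 12 of 19 and Il7r under 17 of 19. The calls there include Cd34 and Il7r, which are also counted in lists given above. The list means were 9.62 and 9.81 in KO LSK cells, against 10.23 and 10.48 in WT LSK cells. The makeup of the LSK gate in each genotype was not measured, and its part in the differences of the stem cell identity genes was not tested.

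Lists for other cell types gave fewer calls or calls in both directions. Of all genes 4.64% passed between genotypes in LSK cells and 2.64% in myeloid progenitors, in either direction. In KO LSK cells 3 of 21 myeloid and erythroid genes were higher and 1 lower, with Elane at 1.91 and the carbonic anhydrase gene Car2 at -1.18, and each of these calls was lost under 7 or more of the 19 alternatives, without both Kdm5d mice among them. Of 15 megakaryocyte and platelet genes, 1 was higher and 2 lower in KO LSK cells, and 3 were higher and 1 lower in KO myeloid progenitors. Higher in myeloid progenitors were Selp (1.54 to 2.13 over the alternatives), Gp5 (1.39 to 1.62) and Gp1bb (0.98 to 1.38). In LSK cells Gp5 was higher (0.92 to 1.39) and Treml1 lower (-1.59 to -1.05). The platelet chemokine gene Pf4 was lower in both (-1.21 in 15 of 19 alternatives and -1.23 in 13 of 19). The list means were 8.95 and 8.96 in KO myeloid progenitors, against 8.47 and 8.51 in WT myeloid progenitors. In LSK cells they were 8.50 and 8.58 in KO mice, against 8.36 and 8.86 in WT mice. None of 13 stromal genes passed in limma between genotypes in either population, with 2 at an unadjusted p under 0.05 in LSK cells and 0 in myeloid progenitors. Of 11 mature lineage genes 1 passed, the B cell gene Ms4a1, lower in KO mice of both populations (-0.60 and -0.43). The call of Ms4a1 was kept under all 18 alternatives in LSK cells and under 12 of 18 in myeloid progenitors, where it was lost without any 1 of mice 5 to 8 and without both Kdm5d mice (adjusted p up to 0.135).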

How the data were processed

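The authors deposited log2 expression values for 22439 probes on 24 arrays; the labels' protocols give column extraction, amplification by in vitro transcription and Cy5 labelling. Per the submitters' processing notes limma was used, in a version they do not state. Ranked values hardly vary between arrays (largest gap 0.0451), which is what quantile normalization gives. Scanner, background correction and spot filters were not stated there. Precision is limited by the 2 mice per group.

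Probes were named through the platform annotation and RefSeq (GRCm38.p6): 18213 by current symbol, 2126 by synonym, 36 under the array's name, and 2064 had none. Genes with several probes were read from the brightest. The 3 arrays of a mouse are technical and were averaged. All 4 groups entered 1 fit of the 8 mouse means (limma 3.58.1, R 4.3.3, lmFit and eBayes with trend and robust), with 4 residual degrees of freedom. Two-sided p-values were adjusted over the 22439 probes by Benjamini-Hochberg and called under 0.05. The fit was run on simulated mouse means with known changes added, as a check of the code. That run did not measure how many smaller differences the fit misses in these data. The members, lists and tests were chosen with earlier results of these data known. All members were named. For each other list the plan was up to 4 genes per contrast past the threshold, by largest absolute change. Not every gene that this plan gives is named above. Bap1, Kdm5d, Xist, Kit, Cdh5, Kdr and Pecam1 were named as checks. Alternatives were fits over all arrays, compared groups alone, other eBayes options, median centring, filters on dim probes, the mean over probes, a Kdm5d covariate, leaving out mice and, chosen after seeing the data, the median over a mouse's arrays.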

Additional observations from a re-analysis of the deposited data

Results flagged for a closer look

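The genotype effect differed between populations, by the interaction term of the limma fit, for 1 gene of the lists examined, the endothelial list's Cldn5, which encodes a tight junction protein and is not one of the stem cell identity genes. Cldn5 gave 11.40 and 11.17 in KO LSK cells, against 7.90 and 7.47 in WT LSK cells, and 7.41 and 7.76 in KO myeloid progenitors, against 6.87 and 7.33 in WT myeloid progenitors. The KO minus WT difference in LSK cells exceeded that in myeloid progenitors by 3.12 on the log2 scale (SE 0.34, adjusted p = 0.0124). The interaction passed under 17 of 18 alternatives, and the highest adjusted p was 0.142, in the fit without the trend and robust options. Dixon's test for a stray sample was not applied, as no group held 4 mice.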

How the results depend on the processing

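No call of a stem cell identity gene changed direction under any alternative. The fit over all arrays with mouse as a random block called 8 members in LSK cells, 9 in myeloid progenitors, 8 in their mean and 4 in the difference between them; adding array number as a replicate block gave the same counts of 8, 9, 8 and 4. Array numbers are technical repeats and pair no mice, and these fits have 20 and 18 residual degrees of freedom, against 4. Keeping probes above the 50th percentile tests fewer probes and called 2 members in LSK cells, 3 in myeloid progenitors and 6 in the mean, and probes above the 25th percentile gave 2 in myeloid progenitors. The median over the arrays of a mouse, chosen after seeing the data, called 2 members in LSK cells (Tek and Abcb1b) and 2 in myeloid progenitors (Tek and Abcg2). Without both mice with a Kdm5d signal, 0 members passed in myeloid progenitors and 11 between WT populations, against 20. Leaving out 1 mouse in turn, which leaves a lone mouse assumed to vary like the other groups, gave 1 to 2 members in LSK cells (2 without mouse 3, Tek and Abcb1b), 0 to 2 in myeloid progenitors (0 without mouse 6; Mecom and Slamf1 without mouse 7; Slamf1 in place of Abcg2 without mouse 8), 2 to 3 in the mean, 0 to 1 in the difference (1 without mouse 8), 10 to 17 between KO populations (10 without mouse 7) and 14 to 22 between WT populations. The cause was not tested. Probes near the low end of the scale (Prdm16, Erg and Slamf1 under 6.5 in every mouse) limit what can be seen for those genes. For Slamf1, leaving out mouse 8 also leaves mouse 7 as the lone KO mouse, whose mean holds the stray array at 7.27.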
